A study of Homo sapiens with 6 samples.

Results

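The genes described are 10 of the Hippo signalling pathway, of 56638 genes in the count table. They were ANKRD1, CTGF, CYR61, AMOTL2, AXL, LATS2 and F3, known as targets of YAP and TEAD, and the factors TEAD1, YAP1 and WWTR1 themselves. ANKRD1 was picked because its H3K4me3 increase after MAK683 was one of the largest, so its H3K4me3 values are a description and support nothing further. The other 9 were taken as known targets and factors of the pathway, with earlier results of these data known. All came from G401, a human malignant rhabdoid tumor (MRT) cell line that lacks SMARCB1, a SWI/SNF subunit, and SMARCB1 had 0 input counts under both treatments. Cells were treated for 3 days with DMSO, the solvent control, or with 3 µM MAK683, which binds the EED subunit of PRC2. Chromatin was precipitated with an H3K27me3 or an H3K4me3 antibody or sequenced without an antibody as input, with 1 library per treatment and antibody. No comparison therefore had a replicate check, no test was made and no p-value is given.

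In the Hippo pathway, the kinases STK3 and STK4 activate LATS1 and LATS2, which phosphorylate YAP1 and WWTR1 (the gene of TAZ) and keep them out of the nucleus. Unphosphorylated YAP and TAZ enter the nucleus and bind TEAD factors at enhancers and promoters, often beside AP-1, and raise transcription of genes for matricellular proteins, cytoskeletal regulators and feedback inhibitors. H3K27me3 is placed by PRC2 at silent genes, whereas H3K4me3 marks active or poised promoters.

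The promoters of ANKRD1, CTGF, CYR61 and F3 are shown because these short genes gave the most contrasting H3K27me3 and H3K4me3 values below. Each is the 250 bases before the start site of the canonical transcript (GRCh37, GENCODE release 44), 5′ to 3′ on the strand of the gene. Capitals mark GGAATG, the core of the TEAD motif, and TGANTCA, the AP-1 motif, on either strand, and no match overlapped another.
ANKRD1, chr10:92680845-92681094, minus strand: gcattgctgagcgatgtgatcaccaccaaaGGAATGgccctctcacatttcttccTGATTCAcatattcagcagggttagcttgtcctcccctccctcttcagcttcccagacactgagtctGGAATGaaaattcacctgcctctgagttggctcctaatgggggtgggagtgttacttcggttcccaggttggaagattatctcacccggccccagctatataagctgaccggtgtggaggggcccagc
CTGF, chr6:132272513-132272762, minus strand: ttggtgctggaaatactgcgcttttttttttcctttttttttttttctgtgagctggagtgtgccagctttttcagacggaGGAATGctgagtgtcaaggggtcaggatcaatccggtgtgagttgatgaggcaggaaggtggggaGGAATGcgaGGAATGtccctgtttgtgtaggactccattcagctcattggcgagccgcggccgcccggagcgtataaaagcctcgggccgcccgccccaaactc
CYR61, chr1:86046194-86046443, plus strand: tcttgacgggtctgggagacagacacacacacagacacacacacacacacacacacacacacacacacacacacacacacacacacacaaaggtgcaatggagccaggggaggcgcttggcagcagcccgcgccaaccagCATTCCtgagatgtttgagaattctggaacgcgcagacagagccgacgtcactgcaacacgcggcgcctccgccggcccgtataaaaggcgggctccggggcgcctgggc
F3, chr1:95007316-95007565, minus strand: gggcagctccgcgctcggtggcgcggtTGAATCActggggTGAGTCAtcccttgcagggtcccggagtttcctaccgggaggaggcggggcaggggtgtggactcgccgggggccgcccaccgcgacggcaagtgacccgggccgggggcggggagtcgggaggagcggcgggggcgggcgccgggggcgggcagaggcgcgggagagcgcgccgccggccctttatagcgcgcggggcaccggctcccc
ANKRD1 had 2 GGAATG matches, which begin 220 and 128 bases before its start site, and 1 TGANTCA match that begins 195 bases before it. CTGF had 3 GGAATG matches in this window. CYR61 had 1, on the opposite strand, and F3 had none but 2 TGANTCA matches that begin 223 and 210 bases before its start site. AMOTL2, TEAD1 and YAP1 held 1 GGAATG match each, and AXL, LATS2 and WWTR1 held neither motif. Of 19862 protein-coding promoters of the same length, 9.83% had at least 1 GGAATG match, 0.66% at least 2 and 0.0453% at least 3, and 4.7% had a TGANTCA match. The matches are a description of these letters and no factor was measured here. CpG dinucleotides also set the promoters apart. In the 500 bases on each side of the start site, the observed over expected CpG ratio was 0.188 at ANKRD1, lower than at all but 9.34% of promoters, 0.318 at AXL and between 0.72 and 0.976 at the other 8 genes, against a median of 0.726 over all promoters.

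Library totals were between 13308099 and 21281877 counts, so that 3 counts, the limit that a count of 0 allows, corresponded to between 0.141 and 0.225 CPM (counts scaled to the same library total). Reads were counted over whole genes, and a narrow promoter signal was thus diluted in long genes. The 10 genes spanned from 3.20 kb (CTGF) to 270.3 kb (TEAD1). Levels are given as log2 of ChIP over input of the same treatment, both in CPM, which allows for gene length and copy number. Input itself was between 0.614 and 0.909 CPM per kb at the 10 genes in DMSO and between 0.497 and 1.06 in MAK683. Changes are given as log2(MAK683/DMSO) relative to the median of all genes, over 30028 genes for H3K4me3 and 29931 for H3K27me3. A gene that changed like the median gene had 48.0% of its H3K4me3 counts and 42.4% of its H3K27me3 counts in MAK683. Neither levels nor changes can show a difference common to all genes, because spike-in scaling is not part of the counts. All intervals are 95% intervals and cover counting error only, not differences in chromatin preparation.

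Before treatment, the 10 genes lay on either side of input in H3K27me3. In DMSO, H3K27me3 was above input at ANKRD1 and F3 and below input at the other 8, and no interval included input. This compares with 24.0% of 24196 genes whose interval was above input and 62.9% below it. ANKRD1, a nuclear and sarcomeric ankyrin repeat protein of stressed heart and skeletal muscle, had a log2 H3K27me3 level of 1.33 (interval from 0.995 to 1.70), which was higher than at 94.0% of genes. F3, the tissue factor that starts blood coagulation, had a level of 0.89 (from 0.63 to 1.16). At the other end, the level was -2.77 (from -4.49 to -1.72) at CTGF, from only 6 H3K27me3 counts against 41 input counts. The other 7 genes lay between -1.39 at AMOTL2 and -0.66 at AXL. The median of all genes was -0.73, so a level below input over a whole gene does not show that H3K27me3 is absent. Centred on that median, AXL lay at 0.066.

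ANKRD1, the highest of the 10 in H3K27me3, was the lowest in H3K4me3 in DMSO. CYR61 and CTGF, secreted CCN proteins of the extracellular matrix, had log2 levels of 4.99 (interval from 4.59 to 5.48) and 4.21 (from 3.78 to 4.72). AMOTL2, an angiomotin that binds YAP at cell junctions, had 3.08, and LATS2 had 1.07. AXL, a receptor tyrosine kinase, had 0.40 and YAP1 had 0.33. The interval of TEAD1 (from -0.064 to 0.065) included input. F3 (-0.38), WWTR1 (-0.62) and ANKRD1 (-0.68, from -1.15 to -0.23) were below input. Neighbors in this order whose intervals overlapped were CYR61 and CTGF, AXL and YAP1, F3 and WWTR1, and WWTR1 and ANKRD1. H3K4me3 intervals lay above input at 6 of the 10 genes and below it at 3, against 38.1% and 47.2% of all genes. In MAK683, they lay above input at 8 and below it at 1 (WWTR1), against 38.7% and 43.3%. H3K27me3 intervals in MAK683 lay above input at 2, again ANKRD1 and F3, and below it at 8, against 22.7% and 57.2%. Per length and in DMSO, H3K4me3 was 22.1 CPM per kb at CYR61, 14.3 at CTGF and 0.382 at ANKRD1.

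**Figure D1:**
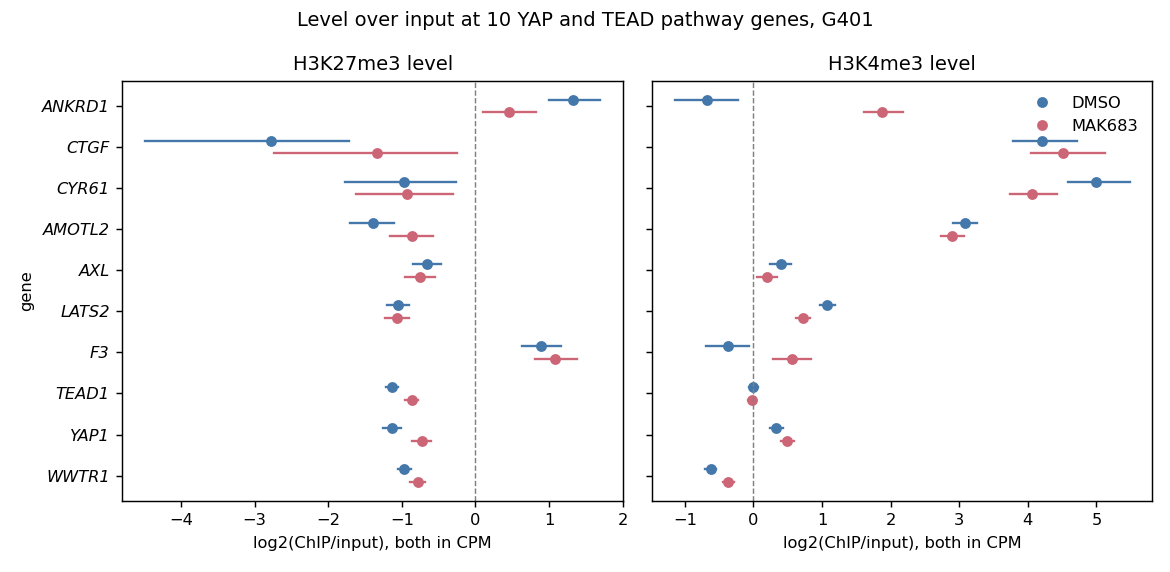
Log2 of ChIP over input (x axis, both in CPM) for H3K27me3 (left) and H3K4me3 (right) at the 10 genes (rows), with DMSO in blue, MAK683 in red and bars for 95% intervals of counting error in 1 library each. ANKRD1 and F3 are the genes right of the input line in H3K27me3, and ANKRD1 moves from -0.68 to 1.88 in H3K4me3.

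ANKRD1 (chromosome 10, 92671853 to 92680844, minus strand, GRCh37) shares no base with another annotated gene. The H3K4me3 library of DMSO held 73 of its reads and that of MAK683 held 491. For H3K27me3 the counts were 268 and 124, and for input 93 and 132. MAK683 thus held 87.1% of the H3K4me3 counts (interval from 84.0% to 89.7%) and 31.6% of the H3K27me3 counts (from 27.1% to 36.5%). Relative to the median gene, the log2 ratio was 2.85 for H3K4me3 (from 2.51 to 3.24), a 7.19-fold difference, and -0.67 for H3K27me3 (from -0.99 to -0.36). Its H3K4me3 ratio ranked 44 among all genes, and 7.34% of genes had a lower H3K27me3 ratio. In levels over input, H3K4me3 moved from the lowest of the 10 genes to the 4th highest, at 1.88 (from 1.61 to 2.18). H3K27me3 stood at 0.46 in MAK683 (from 0.097 to 0.83), above input on a scale that cannot show a loss common to all genes.

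F3 (chromosome 1, 94994729 to 95007315, minus strand) had 172 reads in the DMSO and 263 in the MAK683 library of H3K4me3, and 177 input reads under each treatment. MAK683 held 60.5% of its H3K4me3 counts (interval from 55.7% to 65.1%), a log2 ratio of 0.72 relative to the median gene (from 0.44 to 1.01). Its H3K27me3 counts were 374 and 257, a ratio of -0.099 with an interval that included the median gene (from -0.34 to 0.13). F3 was therefore higher in H3K4me3 like ANKRD1. Its H3K27me3 level over input was 0.89 before and 1.09 after treatment, on a scale that cannot show a loss common to all genes. In the counts as deposited, the H3K27me3 ratio of F3 was -0.54. The H3K27me3 ratio of ANKRD1 was 0.57 below that of F3 (difference -0.57, from -0.95 to -0.19).

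The targets with high H3K4me3 before treatment had a smaller share of the H3K4me3 reads in MAK683. CTGF (chromosome 6, 132269316 to 132272512, minus strand, CCN2 in current annotation) had 976 counts in DMSO and 734 in MAK683. CYR61 (chromosome 1, 86046444 to 86050272, plus strand, CCN1 in current annotation) had 1802 and 1337. AMOTL2 (chromosome 3, 134074189 to 134094321) had 3295 and 2649. The log2 ratios relative to the median gene were -0.30 (from -0.44 to -0.16), -0.32 (from -0.42 to -0.21) and -0.20 (from -0.28 to -0.13). Other genes with high H3K4me3 had a similar shift. Over 2685 genes with at least 4 times input in both treatments together, the median ratio was -0.22. Centred on those genes, an alternative added once the data had been seen, the value was -0.078 at CTGF, -0.097 at CYR61 and 0.018 at AMOTL2. The span of CTGF lies wholly within another gene of the annotation used here, so its counts depend on the annotation used for counting, which is not given in the sources used here. Input counts were 41 and 31 at CTGF, and minus the change of the input its H3K4me3 ratio was 0.32. At CYR61 input counts were 44 and 79, and minus the change of the input its ratio was -0.93. H3K27me3 counts stayed low at these genes. They were 6 and 8 at CTGF, too few for a ratio, 25 and 28 at CYR61, where the interval included the median gene (from -0.23 to 1.44), and 133 and 132 at AMOTL2, with a ratio of 0.43 (from 0.071 to 0.79).

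AXL (chromosome 19, 41725128 to 41767671) and LATS2 (chromosome 13, 21547175 to 21635725) are a receptor and a feedback inhibitor among the targets. AXL had 913 and 792 counts for H3K4me3 and 395 and 277 for H3K27me3, and neither interval excluded the median gene. LATS2 had 2605 and 2112 H3K4me3 counts, a ratio of -0.19 (from -0.27 to -0.11) that became 0.030 when centred on the genes with high H3K4me3. Its H3K27me3 counts were 537 and 414, with an interval that included the median gene.

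The factors lay close to the median gene in H3K4me3. TEAD1 (chromosome 11, 12695968 to 12966284), which binds the motif above, had 4364 and 4017 counts for H3K4me3, with an interval around the median gene (from -0.069 to 0.056). The interval of the coactivator YAP1 (chromosome 11, 101981178 to 102104155) did so too, with 2535 and 2423 counts (from -0.033 to 0.13). WWTR1 (chromosome 3, 149235022 to 149454501) had 2268 and 2356 counts, a ratio of 0.17 (from 0.084 to 0.25). H3K27me3 stayed below input at all 3 under both treatments, with counts of 1790 and 1512, 827 and 702, and 1608 and 1193 in DMSO and MAK683. The H3K27me3 ratio was 0.20 at TEAD1 and at YAP1 relative to the median gene, but -0.24 at both in the counts as deposited, so its sign depended on the scale. The 3 genes are between 123.0 and 270.3 kb long, and reads at their promoters were not counted apart from the rest of the gene.

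Over the 10 genes, H3K4me3 was at least 2-fold higher at ANKRD1, the gene chosen for it, and at least 2-fold lower at 0, against 4.19% and 1.84% of all genes. The H3K4me3 interval lay above the median gene at 3 (ANKRD1, F3 and WWTR1) and below it at 4 (CTGF, CYR61, AMOTL2 and LATS2), against 19.3% and 21.8% of all genes. Such numbers also follow depth, because genes with more reads have narrower intervals. The median H3K4me3 ratio of the 10 was -0.049, where the median of all genes is 0 by construction. Of the 9 genes with at least 10 H3K27me3 counts in either library, none was 2-fold changed relative to the median gene, against 3.32% higher and 3.55% lower among all genes. The H3K27me3 interval lay below the median gene at ANKRD1 and above it at 3 (AMOTL2, TEAD1 and YAP1), against 18.7% and 15.9%, with a median of 0.066. An H3K4me3 interval above together with an H3K27me3 interval below the median gene was found at ANKRD1 among the 10 and at 7.61% of 27902 genes.

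**Figure D2:**
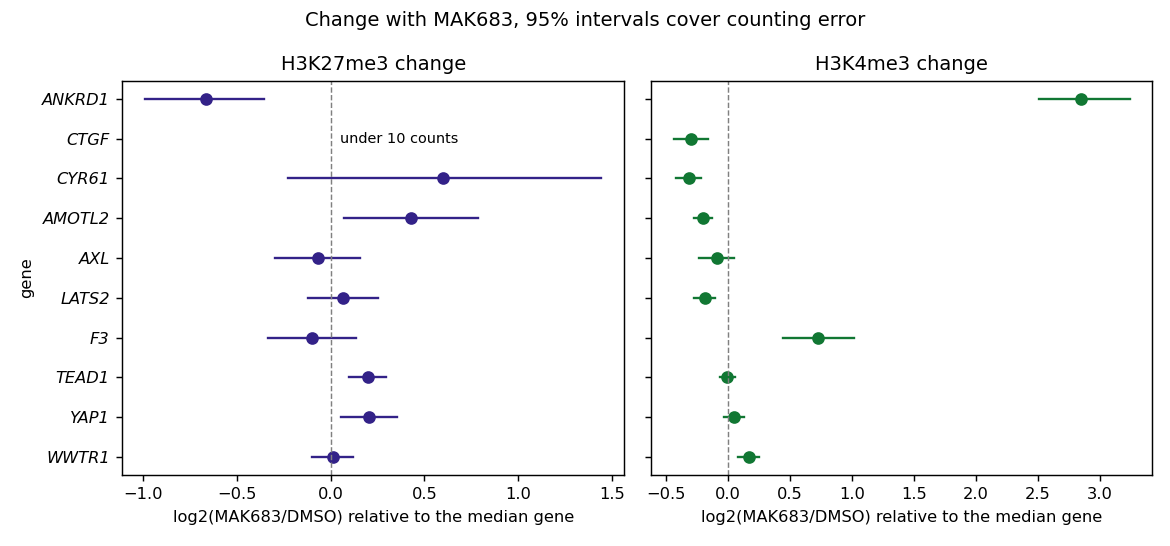
Log2(MAK683/DMSO) relative to the median gene (x axes) for H3K27me3 (left) and H3K4me3 (right) at the 10 genes (rows), with 95% intervals of counting error. ANKRD1 lies at 2.85 in H3K4me3 and at -0.67 in H3K27me3, F3 at 0.72 and -0.099, and CTGF has too few H3K27me3 counts for a value.

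The paralogs of the targets were examined by family. Among muscle ankyrin repeat proteins, ANKRD2, a stretch-responsive protein of skeletal muscle, had 137 and 187 counts for H3K4me3 before and after treatment. Its ratio was 0.56 (from 0.24 to 0.89), and its H3K27me3 level in DMSO was below input (-1.45). Input counts at ANKRD2 were 189 and 152. Over input, its H3K4me3 level was -0.80 in DMSO and 0.29 in MAK683, and its H3K27me3 level in MAK683 was -0.48. ANKRD23 had only 10 and 12 counts for H3K4me3, which left a wide interval (from -0.96 to 1.75). Of the span of ANKRD23, 3.68% is shared with no other gene, and its input counts were 34 and 34. In the CCN family, NOV (CCN3) departed from CTGF and CYR61. NOV, which unlike them had H3K27me3 above input in DMSO (2.65), had 38 and 163 H3K4me3 counts, a ratio of 2.18 (from 1.70 to 2.76). Input counts at NOV were 26 and 51, so part of this ratio was shared by the input. Over input, its H3K4me3 level was 0.20 in DMSO and 1.65 in MAK683. Of its span 37.1% is shared with no other gene. Its H3K27me3 counts were 191 and 128, with an interval that included the median gene (from -0.47 to 0.19). Over input, its H3K27me3 level was 2.65 in DMSO and 1.86 in MAK683. The H3K4me3 ratio of CYR61 was lower than that of NOV by 2.52 (difference -2.52, from -3.03 to -2.00). WISP1 had 339 and 425 H3K4me3 counts (0.44, from 0.23 to 0.65) with H3K27me3 above input (1.57). WISP3 had 117 and 108, with an interval from -0.39 to 0.39, and WISP2, which shares every base of its span with other annotated genes, was at 0 in all 6 libraries.

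Of the angiomotins, AMOT and AMOTL1 had H3K27me3 above input in DMSO (1.32 and 0.17) where AMOTL2 did not (-1.39). AMOTL1 had 2217 and 3048 H3K4me3 counts, a ratio of 0.57 (from 0.49 to 0.65), and AMOT had 302 and 363 (0.38, from 0.15 to 0.60). The ratio of AMOTL2 was lower than that of AMOTL1 by 0.77 (difference -0.77, from -0.88 to -0.67). The H3K27me3 ratios of AMOTL1 (-0.31) and AMOT (-0.38) had intervals below the median gene. Receptors related to AXL gave no such contrast. The H3K4me3 difference was 0.048 between AXL and TYRO3 (from -0.13 to 0.22) and 0.021 between AXL and MERTK (from -0.14 to 0.18). The intervals of the difference also included 0 between LATS2 and LATS1 (from -0.20 to 0.064) and between TEAD1 and TEAD2, TEAD3 or TEAD4, where they reached from -0.32 to 0.19. YAP1 was 0.12 below WWTR1 (difference -0.12, from -0.24 to -0.0045). All H3K27me3 levels of TYRO3, MERTK, LATS1 and the 4 TEAD genes in DMSO were below input.

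**Figure D3:**
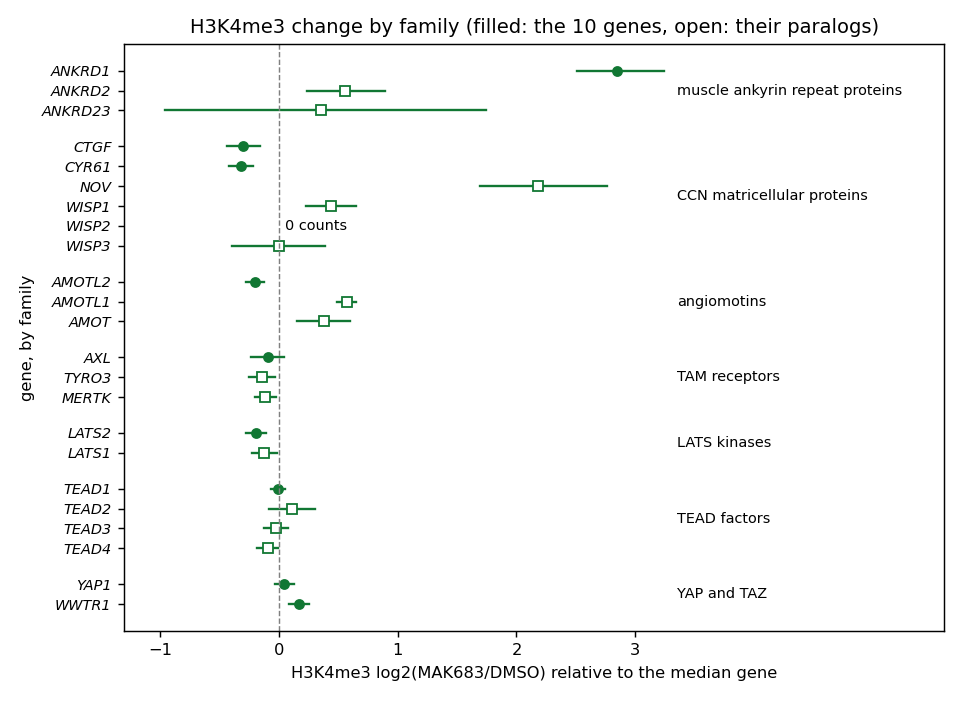
H3K4me3 log2(MAK683/DMSO) relative to the median gene (x axis) for the 10 genes (filled circles) and their paralogs (open squares), grouped by family, with 95% intervals of counting error. NOV at 2.18 stands apart from CTGF (-0.30) and CYR61 (-0.32), ANKRD1 lies at 2.85 and ANKRD2 at 0.56, and the TAM, LATS and TEAD families lie near 0. These ratios are not corrected for the change of the input.

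A commonly used list of 22 YAP and TAZ targets, which includes the 7 targets above, showed both patterns. H3K4me3 was at least 2-fold higher at 2 of the 22 (ANKRD1 and IGFBP3) and at least 2-fold lower at none, against 4.19% and 1.84% of all genes. Its interval lay above the median gene at 12 and below it at 7, against 19.3% and 21.8%, and the median ratio was 0.17. Intervals are narrower at genes with more reads, so these numbers of intervals also follow depth. ANKRD1 was chosen for its H3K4me3 increase, so its place in these counts was fixed in advance. Without it, IGFBP3 alone was at least 2-fold higher, which is near the share of all genes. IGFBP3, a binding protein of insulin-like growth factors, had 166 and 335 H3K4me3 counts (1.12, from 0.85 to 1.40). It had 632 and 393 H3K27me3 counts and an H3K27me3 level of 2.24 in DMSO. FOXF2, a forkhead factor of mesenchyme that was chosen after its values were seen, had the highest H3K27me3 level of the list (3.02) and 265 and 402 H3K4me3 counts. H3K27me3 was at least 2-fold lower at 1 of 21 genes with enough counts, near the 3.55% of all genes. This was GADD45A, a stress-response gene, with 70 and 22 H3K27me3 counts (-1.19, from -1.99 to -0.52), whose H3K4me3 counts were 1725 and 1434. GADD45A was no longer 2-fold lower when centred on genes with H3K27me3 of at least 2 times input, an alternative added once the data had been seen. The H3K27me3 interval of the list lay below the median gene at 7 and above it at 5, against 18.7% and 15.9% of all genes, with a median of 0.066. The lowest H3K4me3 ratio in the list was that of CYR61.

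Genes upstream in the pathway had no 2-fold difference, a count near the shares over all genes that does not set them apart. Of 20 kinases, adaptors and other regulators of the Hippo cascade, none was 2-fold changed in H3K4me3 or in H3K27me3, and the median ratios were -0.00090 and 0.068. H3K4me3 intervals lay above the median gene at 6 and below it at 9, against 19.3% and 21.8% of all genes, of which 4.19% were at least 2-fold higher and 1.84% lower. The numbers of intervals also follow depth here, as genes with more reads have narrower ones. For H3K27me3, 3.32% of all genes were at least 2-fold higher and 3.55% lower. The highest H3K4me3 ratio was at FRMD6, a membrane scaffold that activates the cascade, with 1460 and 2261 H3K4me3 counts (0.74, from 0.65 to 0.84) and 4009 and 2314 H3K27me3 counts (-0.35). Of the span of FRMD6, 32.6% is shared with no other gene. The lowest H3K4me3 ratio was at the LATS cofactor MOB1A, with 1109 and 780 H3K4me3 counts (-0.39). Among 10 TEAD factors and coactivators, VGLL2, a TEAD cofactor of skeletal muscle, was at least 2-fold higher in H3K4me3, with 98 and 259 counts (1.51, from 1.17 to 1.87) and an H3K27me3 level of 2.82 in DMSO. Its input counts were 71 and 139, and minus the change of the input VGLL2 was no longer 2-fold higher. VGLL3, chosen after its values were seen, had 431 and 568 counts (0.51) and VGLL1 had 126 and 87 (-0.42, from -0.83 to -0.016), both with H3K27me3 above input. Of 7 AP-1 subunits, FOSB and JUNB were at 0 in all libraries, and their whole spans are overlapped by other genes of the annotation. JUN carried both modifications in DMSO, with levels of 2.59 for H3K27me3 and 3.48 for H3K4me3. Its H3K27me3 counts were 292 and 112 (-0.93, from -1.27 to -0.62) and its H3K4me3 counts 605 and 885 (0.66, from 0.51 to 0.81). FOS, FOSL1 and JUND had H3K4me3 ratios between -0.50 and -0.13, and FOSL2 had 587 and 696 counts (0.36, from 0.20 to 0.52).

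Across the listed genes, the H3K4me3 ratio was set against the H3K27me3 level in DMSO, 2 values that share no library. H3K27me3 was above input at 19 of the 60 listed genes with enough counts, and the H3K4me3 interval lay above the median gene at 16 of these 19. The exceptions were WISP3, GADD45A and VGLL1. Of 39 genes with H3K27me3 below input, the H3K4me3 interval lay above the median gene at 10 and below it at 18. The median H3K4me3 ratios were 0.55 and -0.023. These counts include ANKRD1, which was chosen for its H3K4me3 increase. Without the 10 genes, the interval lay above the median gene at 14 of 17 genes with H3K27me3 above input. Of 31 genes below input, it lay above the median gene at 9 and below it at 14. The medians were then 0.51 and -0.022. Over all genes, 41.6% of 5805 genes with H3K27me3 above input and 14.1% of 15222 below input had an H3K4me3 interval above the median gene, and 3.17% and 34.6% had one below it. The Spearman rho was 0.48 over the 50 listed genes other than the 10 and 0.40 over 24175 genes. These describe genes of the same libraries, which are not independent replicates. The lists were also chosen with earlier results of these data known. Genes with more counts have narrower intervals, so the counts of intervals also follow depth.

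**Figure D4:**
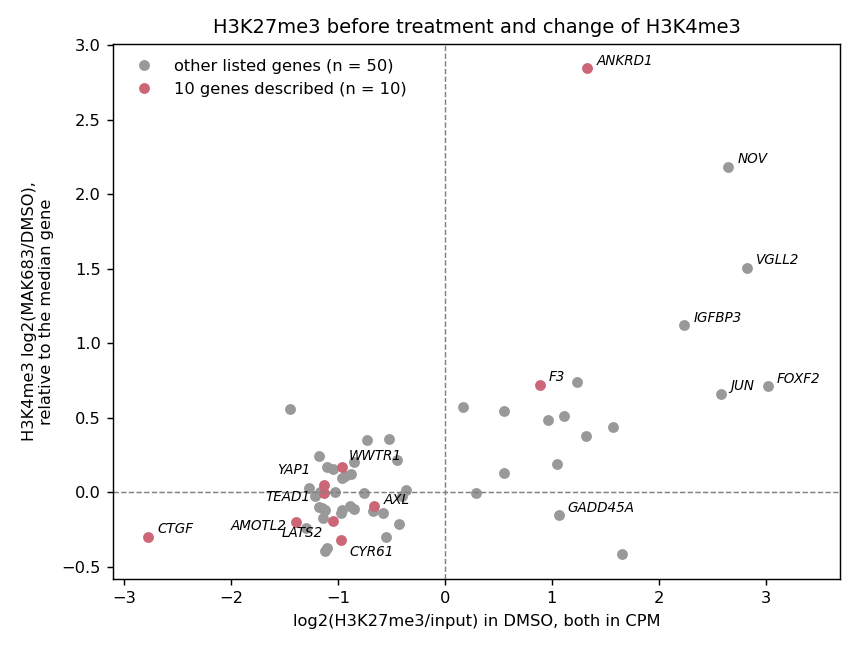
H3K27me3 level over input in DMSO (x axis, log2, in CPM) against the H3K4me3 log2(MAK683/DMSO) relative to the median gene (y axis) for the 10 genes (red) and 50 other genes of the pathway lists (grey). ANKRD1, NOV, VGLL2 and IGFBP3 lie at the upper right, and CTGF at -2.77 lies at the lower left.

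The genes around ANKRD1 did not share its H3K4me3 difference. Within 500 kb, 5 other genes had at least 50 input counts. RPP30, an RNase P subunit whose end nearest to ANKRD1 is at 92668310, had 948 and 744 H3K4me3 counts (-0.24, from -0.38 to -0.10). HTR7, a serotonin receptor gene, had 1161 and 1124 (0.066, from -0.053 to 0.19). On the other side, the intervals were from -0.34 to 0.44 at LINC00502, from 0.016 to 0.29 at PCGF5 and from -0.27 to -0.044 at HECTD2. HECTD2 shares every base of its span with other annotated genes. H3K27me3 was above input in DMSO at HTR7 (1.02), LINC00502 (1.07) and PCGF5 (0.81), and below it at RPP30 (-1.25) and HECTD2 (-1.18). The H3K27me3 ratio of HTR7, LINC00502 and PCGF5 was -0.28, -0.33 and -0.28, each with an interval below the median gene. ANKRD1 thus lay among genes with H3K27me3 above input, beside one below it. Its own H3K27me3 ratio was -0.67 (from -0.99 to -0.36). The intervals were from -0.36 to -0.20 at HTR7, from -0.57 to -0.11 at LINC00502 and from -0.40 to -0.16 at PCGF5. Intervals of the difference between ANKRD1 and these genes were not calculated.

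**Figure D5:**
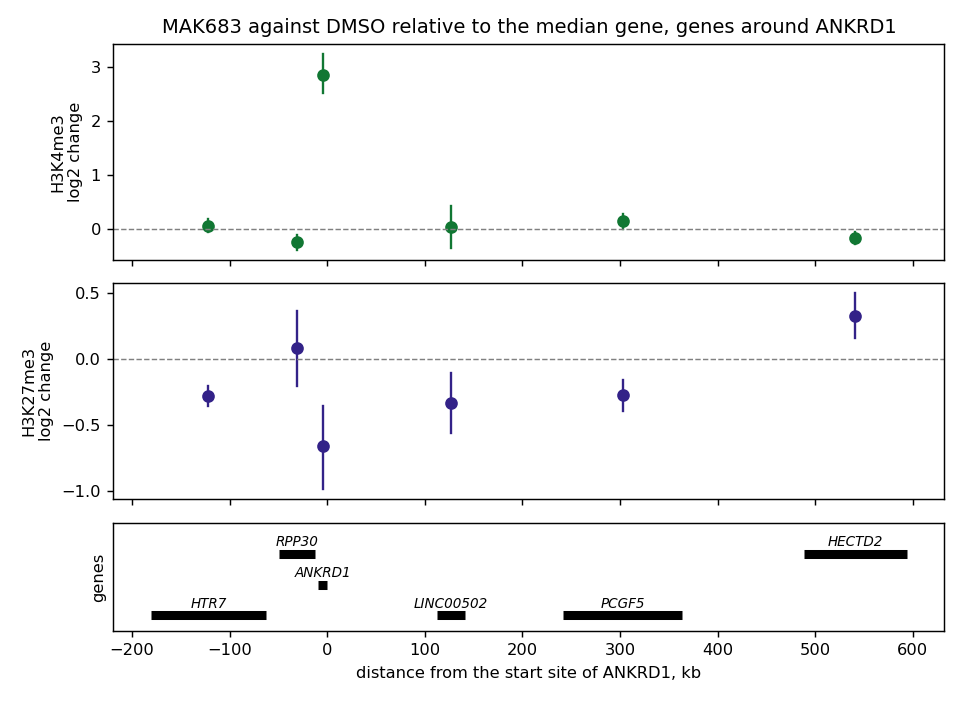
Log2(MAK683/DMSO) relative to the median gene for H3K4me3 (top) and H3K27me3 (middle) at genes around ANKRD1, placed by their middle in kb from its start site (x axis), with gene spans below and 95% intervals of counting error. ANKRD1 is at 2.85 in H3K4me3, and the 5 other genes lie between -0.24 and 0.15.

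The genes most like ANKRD1 were sought over the 4 levels over input (H3K27me3 and H3K4me3 in DMSO and MAK683), by Euclidean distance on the log2 scale. These levels include the H3K4me3 values by which ANKRD1 was chosen, so the genes found were bound to resemble it in them. The nearest were TBX3 (distance 0.87), C6orf141 (1.15), TBC1D8B (1.16), STK17B (1.25) and IGFBP5 (1.25). Of the span of TBC1D8B, 15.2% is shared with no other gene. TBX3, a T-box repressor of development, had 172 and 660 H3K4me3 counts and 690 and 349 H3K27me3 counts. IGFBP5, of the same family as IGFBP3, had 376 and 738 H3K4me3 counts and 890 and 417 H3K27me3 counts. F3 was the nearest of the other 9 genes at a distance of 1.56, with rank 36. The rank was 23218 for AMOTL2, 24092 for CYR61 and 24161 for CTGF, the genes with high H3K4me3 in DMSO.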

How the data were processed

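ChIP-seq reads of G401 cells (6 libraries, 1 per treatment and antibody or input) were trimmed by the authors with Trim Galore (version 0.4.4), aligned to hg19 with Bowtie2, cleared of repeat sequences with Picard (version 2.23.6) and counted per gene with featureCounts. The authors deposited whole, unscaled counts for 56638 genes, and the annotation used for counting is not given in the sources used here. Drosophila spike-in chromatin was added by the authors, but its scaling is not part of the counts, so a change common to all genes cannot be seen. All 6 count columns were used.

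Changes were log2((MAK683 + 1)/(DMSO + 1)) of the counts minus the median over genes with at least 10 counts in either library, with an exact Clopper-Pearson 95% interval of the share of counts in MAK683. Levels were log2 of ChIP over input after scaling to counts per library total (CPM), with 0.05 CPM added, for genes with at least 50 counts in the 2 inputs together. Differences between 2 genes were log2 odds ratios with Wald intervals after adding 0.5 counts. A gene was called when it differed at least 2-fold from the median gene. Intervals and floors cover counting error only.

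The genes and lists were chosen with earlier results of these data known. Named were the 10 genes, their paralogs, listed genes that were at least 2-fold changed with a mean of at least 20 counts or otherwise the ends of a list, genes within 500 kb of ANKRD1 with at least 50 input counts, and the 5 genes nearest to ANKRD1 in the 4 levels. FOXF2, VGLL3, FOS, FOSL1, FOSL2 and JUND were named after their values were seen. Symbols were matched to GENCODE 44 on GRCh37, the assembly of hg19, 33523 directly and 1810 through older symbols, and WISP1 was not matched. Promoters were read from the GRCh37 genome. The calculation was tested on simulated counts with 200 genes changed 4-fold, all of which were found for each modification, and 1 of 21951 unchanged genes was called for H3K4me3 and 2 of 20514 for H3K27me3. These simulated counts held counting error only, and genes with fewer than 50 expected counts in DMSO were not scored. The simulation checks the calculation and gives no rate of false calls for the real libraries. Python 3.11.15, numpy 2.4.6, scipy 1.17.1, pandas 2.3.3, pysam 0.24.0 and matplotlib 3.10.9 were used. Alternatives changed the scale, pseudocount, filter, threshold and input.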

Additional observations from a re-analysis of the deposited data

How the results depend on the processing

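The H3K4me3 ratio of ANKRD1 lay between 2.57 and 3.07 over 9 alternatives and that of F3 between 0.61 and 0.94, and the H3K27me3 ratio of ANKRD1 between -1.11 and -0.35. Over all alternatives, 290 values that summarise a comparison were the same and 32 moved, and of the values of single genes 252 were the same, 69 moved and 9 were reversed. The summary values that moved and the single genes that reversed follow, and the cause was not tested. Minus the change of the input, the target signature had 1 gene at least 2-fold lower in H3K4me3 and 2 in H3K27me3, the TEAD list 0 at least 2-fold higher in H3K4me3, the AP-1 list 1 lower in H3K27me3, and the H3K4me3 ratio was 0.32 at CTGF and -0.93 at CYR61. VGLL2 was the gene of the TEAD list no longer called. At a 1.5-fold threshold, H3K4me3 was higher at 2 of the 10 genes, 4 of the signature, 1 of the Hippo cascade and 1 of AP-1, and H3K27me3 was higher at 1 and lower at 1 of the 10 genes, higher at 2 and lower at 3 of the signature, and lower at 1 of AP-1. Centred on genes with H3K4me3 of at least 4 times input, the Hippo cascade had an H3K4me3 median of 0.22, AMOTL2 had 0.018 and LATS2 0.030. Centred on genes with H3K27me3 of at least 2 times input, 0 of the signature were 2-fold lower in H3K27me3, GADD45A no longer being called, with medians of 0.38 for the signature, 0.38 for the Hippo cascade and -0.019 for AP-1. Both of these centrings were added after the data had been seen. In H3K27me3 counts as deposited, 1 of the 10 genes, 3 of the signature and 1 of AP-1 were 2-fold lower, the medians were -0.37 for the 10 genes, the signature and the cascade and -0.42 for the TEAD list, and AMOTL2 (-0.011), TEAD1 (-0.24) and YAP1 (-0.24) were reversed. With no filter on low counts, 1 of the 10 genes, 2 of the signature and 1 of AP-1 were 2-fold lower in H3K27me3, the medians were -0.22 for the 10 genes, -0.29 for the signature, -0.29 for the cascade and -0.33 for the TEAD list, and TEAD1 (-0.16) and YAP1 (-0.15) were reversed. Centred on the median of all genes over input, the H3K27me3 level of AXL in DMSO was 0.066. No paired analysis was possible because each treatment had 1 library per antibody, and for the same reason no library could be left out. Of the 10 genes, depth limited CTGF most, with 6 and 8 H3K27me3 counts.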
